A study of Mus musculus with 6 samples.

Results

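The NODAL axis was followed through 10 genes in mouse embryonic stem cells and the epiblast-like cells made from them. The genes were Nodal, Gdf3, Lefty1, Lefty2, Tdgf1, Acvr1b, Acvr2b, Pcsk6, Furin and Skil, chosen by name and found by their Ensembl identifiers on GRCm38. They are 10 of the 51826 Ensembl genes in the deposited count table and of the 14996 genes with enough reads to be tested. Wild-type V6.5 cells, a mouse embryonic stem cell line, gave both groups of 3 libraries. The embryonic stem cells (ESC) were kept with the cytokine Lif and 2i, a pair of inhibitors of GSK3 and MEK that holds the naive pluripotent state. The epiblast-like cells (EpiLC) were on day 3 without Lif and without 2i. Both media held 15% fetal bovine serum in Knockout DMEM, so serum was shared by the groups, and no added activin or FGF is named in the labels. All 6 libraries come from 1 cell line, and nothing in the labels says that libraries of a group came from separate cultures, so the p-values measure the spread between these libraries, which may be technical.

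NODAL is a secreted growth factor of the TGF-beta superfamily that acts through activin receptors, a type I chain such as ALK4 (Acvr1b) and a type II chain such as ActRIIB (Acvr2b), together with the membrane-anchored co-receptor Cripto (Tdgf1). The active complex phosphorylates SMAD2 and SMAD3, which enter the nucleus with SMAD4 and partners such as FOXH1 and raise transcription of Nodal itself and of its inhibitors Lefty1 and Lefty2. NODAL is made as a precursor that the proprotein convertases furin and PACE4 (Pcsk6) cleave, and in the post-implantation epiblast the pathway holds off neural differentiation and later sets the body axis.

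The LEFTY proteins bind NODAL or its co-receptor and block signalling, and their genes have similar coding sequences and lie close together. Their coding sequences were 1107 bases each in the GENCODE transcripts, aligned without gaps, and 91.9% identical, with 90 substitutions. The 50-base stretch that separates them best is shown because reads have to fall on such positions to be told apart. It covers positions 30 to 79, counted from 1 at the first base of the start codon, and capitals mark the 15 bases that differ.
Lefty1: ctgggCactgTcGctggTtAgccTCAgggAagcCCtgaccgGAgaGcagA
Lefty2: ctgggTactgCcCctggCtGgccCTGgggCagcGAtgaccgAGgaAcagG
Of all 50-base windows of the Lefty1 transcript, 17.9% also occurred in the Lefty2 transcript, and of 100-base windows 4.80%. How reads that map to both were handled is not given in the sources used here.

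Library totals ran from 9710410 to 22879812 counts, and each of the 10 genes held between 69 and 13309 counts in each library. Levels are given in CPM, counts scaled by library size. The labels were checked against marker genes: all 10 naive markers were lower in EpiLC, with summed levels of 2677 to 2783 CPM in ESC and 54.9 to 61.0 CPM in EpiLC, and all 8 formative epiblast markers were higher. Fibroblast markers also moved, with 6 of 11 higher and 0 lower and summed levels of 9.08 to 10.5 CPM in ESC against 283 to 329 CPM in EpiLC, most of it the actin-binding gene Tagln (2.95 and 275 CPM). Acta2 (0.03 and 6.05 CPM), Twist1 (2.80 and 10.9 CPM), Col1a2 (0.14 and 3.83 CPM), Col1a1 (0.58 and 1.65 CPM) and Dcn (0 and 143 counts) were the others called higher. Acta2, Col1a2, Col1a1 and Dcn met the read filter only through EpiLC, so they could only be called higher. Thy1 was not called, but was called higher without ESC replicate 3 (log2 fold change 0.53, adjusted p = 0.0486 in edgeR). Col3a1 (1 and 19 counts), Prrx1, Lum and Postn were too low to be tested, the last 2 with at most 1 count in any library. Primitive endoderm markers summed to 441 to 576 CPM in ESC and 701 to 726 CPM in EpiLC, with 4 of 10 higher (Lamb1, Col4a1, Gata4 and Dab2) and 2 lower (Sparc, 322 and 178 CPM, and Sox17, 1.46 and 0.06 CPM). Of 6 core pluripotency markers, 3 were lower: Sox2 (429 and 37.0 CPM), Pou5f1 (835 and 495 CPM) and Nanog (704 and 242 CPM). Lin28a was higher (272 and 869 CPM). Neural markers summed to 92.5 to 132 CPM in ESC and 409 to 447 CPM in EpiLC, with 4 of 6 higher (Nes, Sox1, Pax6 and Zic1) and 0 lower. Most of the difference was Nes (43.2 and 352 CPM). Tubb3 (51.6 and 43.4 CPM) was not called, but was called lower without ESC replicate 3 (adjusted p = 0.00738 in edgeR). Hes5 was too low to be tested. Of 8 primitive streak markers 3 were higher and 1 lower, and without ESC replicate 3 these were 4 and 2. Of 7 trophectoderm markers 1 was higher and 2 lower, and without that library 2 and 3. The part of these other cell types in the differences below was not tested. ESC replicate 3 stood apart: its counts differed from those of ESC replicates 1 and 2 by a chi-square per degree of freedom of 25.7 and 26.1, against 2.58 between those 2 and 2.17 to 4.11 among EpiLC libraries. The fold changes of the 10 genes are therefore also given without it, and other genes where leaving it out changed a call or moved a named fold by over 1.3 times.

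Most of the axis was set differently in the 2 states. Of the 10 genes, 6 were higher in EpiLC (Nodal, Lefty1, Tdgf1, Acvr2b, Furin and Skil), 3 were lower (Gdf3, Acvr1b and Pcsk6) and Lefty2 did not pass. A call means an adjusted p below 0.05 in edgeR's quasi-likelihood test over all tested genes. The share called was 64.6% among all tested genes, 32% higher and 32.6% lower, so a call by itself was common in this comparison. The median log2 fold change (EpiLC minus ESC) was 0.78 over the 10 genes and 0.01 over all tested genes. In 5 of the 10 the difference was called and at least 2-fold, against 29.4% of all genes. The states were free of overlap between libraries in 9 of the 10, against 70.2% of all genes. In 6 of the 9 the EpiLC libraries were the higher ones (34.9% of all genes) and in 3 the lower ones (35.3%). Without ESC replicate 3, Lefty2 was also called lower, giving 6 higher and 4 lower, where 76.7% of all genes were called, 38% higher and 38.7% lower. In these bulk libraries, fewer cells that express a gene and less RNA of it per cell cannot be told apart.

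**Figure D1:**
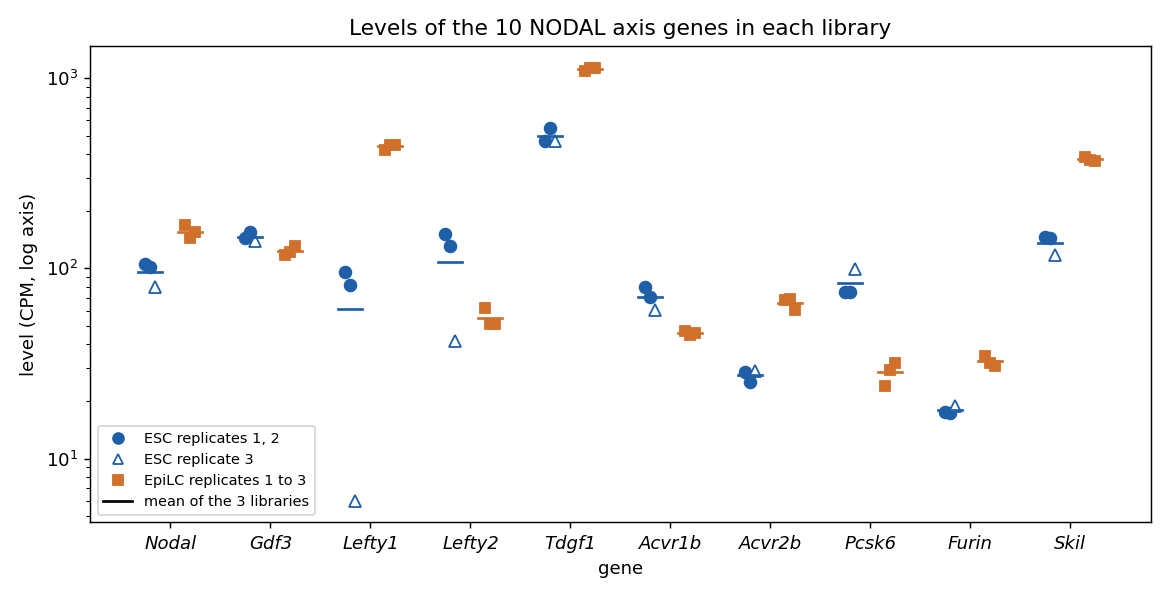
Level of each gene in each of the 6 libraries, in CPM on a log axis, with circles for ESC replicates 1 and 2, open triangles for ESC replicate 3, squares for EpiLC and a line at the mean of each group. Tdgf1 is the highest in both states, and the Lefty1 triangle at 6.01 CPM lies far below every other point.

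The ligands moved in opposite directions. Nodal (ENSMUSG00000037171, chromosome 10, 61417972 to 61425338, plus strand on GRCm38, as for all positions) was measured in ESC replicates 1 to 3 at 106, 102 and 79.4 CPM and in EpiLC at 170, 144 and 155 CPM. All EpiLC libraries lay above all ESC libraries, and ESC replicate 3 was the lowest of the 6. Nodal rose 1.63-fold (log2 fold change 0.70, SE 0.12, adjusted p = 0.00083 in edgeR). Without ESC replicate 3 the log2 fold change was 0.57 (SE 0.06).

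Gdf3 (ENSMUSG00000030117, chromosome 6, 122605403 to 122610087, minus strand) encodes a related ligand that can signal through the same receptors and Cripto, and can form dimers with NODAL. Its levels were 145, 156 and 139 CPM in ESC and 117, 122 and 130 CPM in EpiLC. The groups did not overlap, but the nearest libraries were close, 139 against 130 CPM. Gdf3 fell 1.19-fold (log2 fold change -0.25, SE 0.07, adjusted p = 0.0142 in edgeR), the smallest of the 9 called differences, and the value was -0.30 without ESC replicate 3. That call was lost without EpiLC replicate 1 (log2 fold change -0.22, adjusted p = 0.0619) and without EpiLC replicate 2 (-0.25, adjusted p = 0.0509).

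The antagonists showed the widest contrast. Lefty1 (ENSMUSG00000038793, chromosome 1, 180935022 to 180938400, plus strand) was counted at 6.01 CPM in ESC replicate 3, from 69 counts, with an exact Poisson 95% interval of 4.68 to 7.61 CPM. ESC replicates 1 and 2 held 95.4 CPM (91.1 to 99.9) and 81.8 CPM (78.1 to 85.7), and the EpiLC libraries 422, 448 and 447 CPM. EpiLC lay above every ESC library, and the ESC libraries themselves differed far beyond counting error, which is the only error those intervals cover.

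Lefty1 rose 7.07-fold (log2 fold change 2.82, SE 0.68, adjusted p = 0.0076 in edgeR), the largest difference of the 10 genes. Without ESC replicate 3 the fold was 4.91 (log2 fold change 2.30, SE 0.06, adjusted p = 1.09e-13). The direction held with and without that library, and the fold was smaller without it.

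Lefty2 (ENSMUSG00000066652, chromosome 1, 180893108 to 180899103, plus strand) went the other way. Its levels in ESC replicates 1 to 3 were 152, 132 and 41.4 CPM, and in EpiLC 62.1, 51.2 and 51.2 CPM. The first 2 ESC libraries lay above EpiLC and ESC replicate 3 lay below all EpiLC libraries, so the groups overlapped. The log2 fold change was -0.99 (SE 0.41, adjusted p = 0.0564 in edgeR), which missed the threshold. Without ESC replicate 3 Lefty2 fell 2.62-fold (log2 fold change -1.39, SE 0.08, adjusted p = 4.77e-10).

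The co-receptor was the most abundant transcript of the axis. Tdgf1 (ENSMUSG00000032494, chromosome 9, 110939603 to 110946158, minus strand) stood at 467, 551 and 467 CPM in ESC and at 1095, 1138 and 1130 CPM in EpiLC. All EpiLC libraries lay well above the highest ESC library. Tdgf1 rose 2.26-fold (log2 fold change 1.18, SE 0.08, adjusted p = 5.42e-06 in edgeR), and the value was 1.13 without ESC replicate 3. A processed pseudogene, Tdgf1-ps1 on chromosome 16, carried 330 to 677 counts per library and 12.5% of the 50-base windows of the Tdgf1 transcript. It was also higher in EpiLC, at 48.5 against 28.1 CPM, so reads may be divided between the copies.

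The type I and type II receptor genes moved apart. Acvr2b (ENSMUSG00000061393, chromosome 9, 119402118 to 119434995, plus strand), the type II chain that binds ligand first, stood at 28.4, 25.1 and 29.0 CPM in ESC and at 68.5, 68.7 and 60.6 CPM in EpiLC. Each EpiLC library held more than double the highest ESC library. Acvr2b rose 2.40-fold (log2 fold change 1.26, SE 0.09, adjusted p = 7.71e-06 in edgeR), and the value was 1.29 without ESC replicate 3.

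Acvr1b (ENSMUSG00000000532, chromosome 15, 101174067 to 101213684, plus strand), the type I kinase ALK4 that phosphorylates the SMADs, stood at 80.0, 70.7 and 60.5 CPM in ESC and at 47.0, 44.6 and 46.0 CPM in EpiLC. All ESC libraries lay above all EpiLC libraries, with ESC replicate 3 nearest to them. Acvr1b fell 1.54-fold (log2 fold change -0.62, SE 0.11, adjusted p = 0.00098 in edgeR), and the value was -0.73 without ESC replicate 3.

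The convertases moved in opposite directions as well. Pcsk6 (ENSMUSG00000030513, chromosome 7, 65861734 to 66050386, plus strand), which encodes the secreted convertase PACE4, stood at 75.5, 75.1 and 99.7 CPM in ESC and at 24.1, 29.3 and 31.9 CPM in EpiLC. ESC replicate 3 was the highest of the 6 libraries here. Pcsk6 fell 2.92-fold (log2 fold change -1.55, SE 0.15, adjusted p = 3.54e-05 in edgeR), and the value was -1.41 without ESC replicate 3.

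Furin (ENSMUSG00000030530, chromosome 7, 80388585 to 80405436, minus strand), the convertase of the trans-Golgi network, stood at 17.5, 17.4 and 19.0 CPM in ESC and at 34.7, 31.8 and 30.7 CPM in EpiLC. The groups were well apart and ESC replicate 3 lay close to its group. Furin rose 1.81-fold (log2 fold change 0.86, SE 0.09, adjusted p = 7.36e-05 in edgeR), and the value was 0.88 without ESC replicate 3.

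Inside the cell, Skil (ENSMUSG00000027660, chromosome 3, 31095058 to 31122577, plus strand) encodes SnoN, a co-repressor that binds SMADs and is itself induced by the pathway. It stood at 147, 145 and 118 CPM in ESC and at 383, 371 and 368 CPM in EpiLC. EpiLC libraries lay within a narrow band well above every ESC library. Skil rose 2.74-fold (log2 fold change 1.45, SE 0.09, adjusted p = 3.67e-06 in edgeR), and the value was 1.35 without ESC replicate 3.

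**Figure D2:**
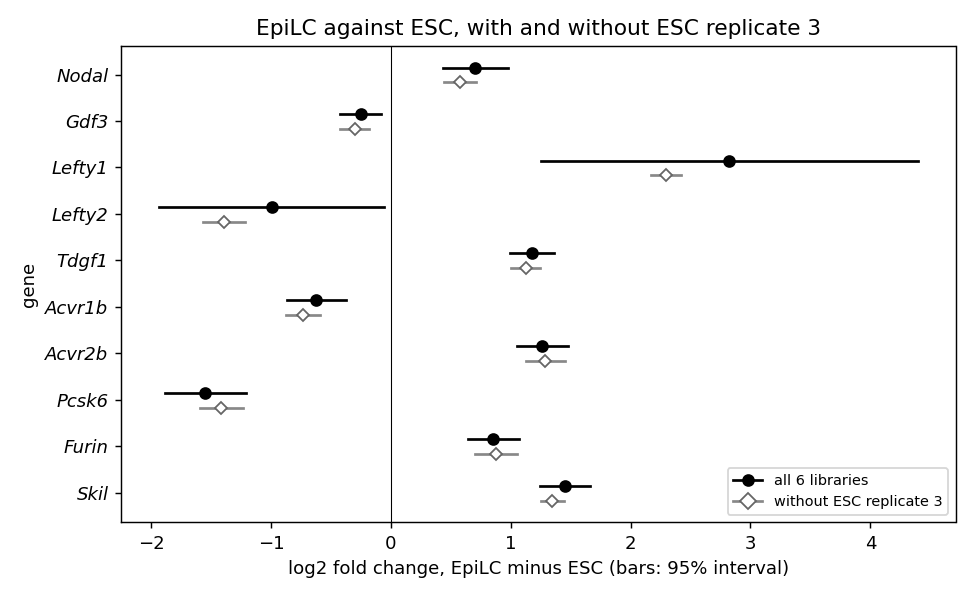
Log2 fold change of each gene, EpiLC minus ESC, with its 95% interval, from all 6 libraries (filled circles) and without ESC replicate 3 (open diamonds). The bars of Lefty1 and Lefty2 are the widest with all libraries and shrink when that library is left out, and no gene changes sign.

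Levels between genes were compared per kilobase of exon, as CPM per kb. In ESC the order of mean levels was Tdgf1 (189 ± 18.4, SD, n = 3), Gdf3 (60.5 ± 3.60), Nodal (45.7 ± 6.79), Lefty2 (41.6 ± 22.6), Lefty1 (34.7 ± 27.4), Pcsk6 (16.1 ± 2.71), Acvr1b (15.9 ± 2.21), Skil (14.1 ± 1.65), Acvr2b (7.00 ± 0.53) and Furin (1.96 ± 0.10). From Nodal down to Skil each gene overlapped the next in that order over the libraries, and Gdf3 (57.3 to 64.4) overlapped Lefty2 (15.8 to 58.4). Lefty1 ran from 3.42 in ESC replicate 3 to 54.3, so its place in ESC rests on that library. Only Tdgf1 at the top and Furin at the bottom were clear of all other genes. In EpiLC the order was Tdgf1 (428 ± 8.81), Lefty1 (250 ± 8.32), Nodal (74.6 ± 6.14), Gdf3 (50.8 ± 2.79), Skil (38.6 ± 0.83), Lefty2 (21.0 ± 2.42), Acvr2b (16.8 ± 1.17), Acvr1b (10.4 ± 0.27), Pcsk6 (5.48 ± 0.76) and Furin (3.53 ± 0.23), and no gene overlapped the next. Dividing by the longest transcript in place of all exons put Skil in place 6 in ESC and left the EpiLC order of means as it was. By that length Gdf3 and Skil, Lefty2 and Acvr2b, and Pcsk6 and Furin each overlapped in EpiLC.

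Ratios of 2 genes within a library do not depend on the scaling between libraries, and 5 were compared, as counts per kb of exon. The Lefty1 to Lefty2 ratio was 0.929, 0.922 and 0.216 in ESC replicates 1 to 3 and 10.1, 13.0 and 13.0 in EpiLC. The antagonist pair was thus near even in ESC replicates 1 and 2, and Lefty1 led in every EpiLC library. The geometric mean of the ratio was 20.9-fold higher in EpiLC, and 12.9-fold without ESC replicate 3. As a share of all Lefty counts, Lefty1 made up 38.5% (95% Wilson interval 37.1 to 39.9), 38.3% (36.9 to 39.7) and 12.7% (10.1 to 15.7) in ESC. In EpiLC the shares were 87.2% (86.2 to 88.1), 89.7% (88.9 to 90.5) and 89.7% (88.9 to 90.5). These intervals cover counting error only, and not the handling of reads shared by the 2 genes.

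Antagonist set against ligand also differed between the states. The summed level of Lefty1 and Lefty2 was 248, 214 and 47.4 CPM in ESC and 484, 499 and 498 CPM in EpiLC. Per kilobase, the ratio of the Lefty sum to Nodal was 2.23, 1.99 and 0.508 in ESC and 3.25, 3.98 and 3.71 in EpiLC. The Lefty sum exceeded Nodal in 5 libraries, and Nodal exceeded it in ESC replicate 3. The fold of the ratio was 2.77, and 1.72 without that library.

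The other ratios were steadier among the ESC libraries. Gdf3 to Nodal was 1.18, 1.32 and 1.51 in ESC and 0.596, 0.728 and 0.730 in EpiLC, so Gdf3 led in ESC and Nodal in EpiLC. Acvr2b to Acvr1b was 0.399, 0.400 and 0.540 in ESC and 1.64, 1.73 and 1.48 in EpiLC, 3.66-fold higher, and the leading receptor chain also changed. Pcsk6 to Furin was 7.62, 7.65 and 9.28 in ESC and 1.23, 1.63 and 1.84 in EpiLC, 5.28-fold lower, with Pcsk6 ahead in every library per kb of exon. Divided by the longest transcript, the mean log2 ratio in EpiLC was 0.18 in place of 0.63, and Furin led in EpiLC replicate 1. For none of the 5 ratios did the groups overlap. Each gave p = 0.1 in an exact two-sided permutation test over the 6 libraries, the smallest that 3 against 3 allows, and 0.1 after adjustment over the 5, so no ratio could reach 0.05 in this design.

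**Figure D3:**
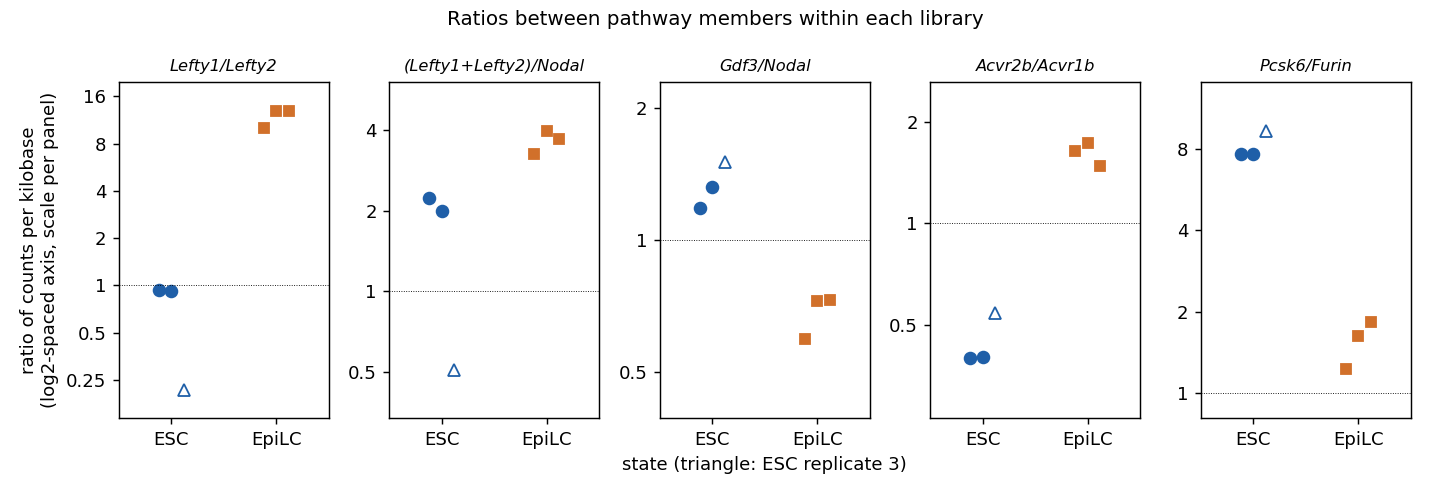
Ratios of counts per kilobase between genes of the axis in each library, on a log2-spaced axis with its own scale in each panel and a dotted line at 1, with circles for ESC replicates 1 and 2, triangles for ESC replicate 3 and squares for EpiLC. The states are apart in every panel, and ESC replicate 3 lies far below the other ESC libraries in both panels that hold the Lefty genes.

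ESC replicate 3 differed from its group most in the antagonists. Relative to the mean of ESC replicates 1 and 2, its log2 difference was -3.85 for Lefty1, and 0.0133% of all tested genes had a difference that low or lower. For Lefty2 it was -1.77 (0.447% of genes). Both lay outside the range of -0.96 to 1.27 that held the middle 95% of tested genes.

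For the remaining 8 genes the difference stayed inside that range, from -0.39 for Nodal to 0.40 for Pcsk6. The library was the lowest of the ESC libraries in 7 of the 10 genes, against 45.4% of all tested genes, and the lowest of all 6 in 5, against 24.1%. The 5 were Nodal, Lefty1, Lefty2, Tdgf1 and Skil, and for Tdgf1 this library and ESC replicate 1 both rounded to 467 CPM. In ESC replicate 3 all 10 genes together held 1059 CPM, against 1313 and 1356 CPM in ESC replicates 1 and 2 and 2423 to 2450 CPM in EpiLC.

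Target genes of the pathway did not share 1 direction in that library. T (Brachyury, a mesoderm factor) stood at 0.17 CPM, from 2 counts (exact Poisson 95% interval 0.02 to 0.63 CPM), against 2.28 and 2.03 CPM in ESC replicates 1 and 2. Eomes, a mesendoderm factor, stood at 8.45 against 19.8 and 17.2 CPM. Gsc (6.01 against 2.54 and 2.39 CPM) and Otx2 (5.23 against 2.28 and 2.43 CPM) were higher there, and Nanog was close (733 against 655 and 723 CPM).

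T, Gsc and Nanog are singled out here with their values known. Marker sums of ESC replicate 3 beside the other ESC libraries were 2783 against 2677 and 2718 CPM for naive genes and 247 against 287 and 295 CPM for formative genes. They were 576 against 441 and 445 CPM for primitive endoderm and 132 against 92.5 and 95.1 CPM for neural genes. Most of the primitive endoderm difference was Sparc (411 against 279 and 277 CPM), and Lamb1 was lower there (94.9 against 107 and 108 CPM). Most of the neural difference was Nes (67.6 against 32.5 and 29.5 CPM). Sums were lower for core pluripotency (2315 against 2618 and 2636 CPM), primitive streak (15.9 against 25.4 and 22.3 CPM) and trophectoderm genes (57.0 against 72.6 and 66.8 CPM). The part of cell state or cell mixture in the low Lefty levels was not tested.

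**Figure D4:**
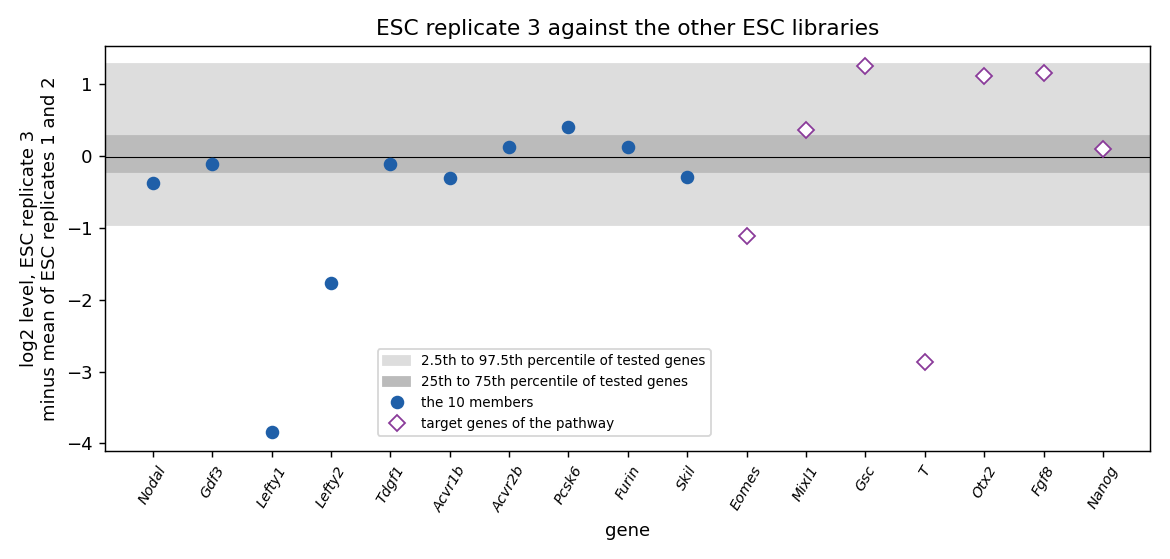
Log2 level in ESC replicate 3 minus the mean log2 level of ESC replicates 1 and 2, for the 10 genes (circles) and 7 target genes of the pathway (diamonds), with bands that hold the middle 50% (dark) and 95% (light) of tested genes. Lefty1, T, Lefty2 and Eomes lie below the light band, and the rest lie inside it.

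The wider pathway was read from lists of 53 further genes, of which 45 had enough reads to be tested. Of these, 25 were higher and 9 lower, 11 did not pass, and the median log2 fold change was 0.36. Over all tested genes 32% were higher and 32.6% lower, with a median of 0.01. The counts of each list below stand beside those shares, and several lists have few genes. Leaving out ESC replicate 3 gave 27 higher and 12 lower of 46 tested, where 38% of all genes were higher and 38.7% lower. Some genes met the read filter only through the state in which they were high, so a call could go only that way. These were Inhba, Tgfb2, Pcsk2, Pcsk4, Mixl1 and Fgf8 through EpiLC, and Inhbb through ESC. Of the other ligands, 3 of 5 were higher and 1 lower. Inhba, the activin A subunit, had 0 counts in ESC and 46 in EpiLC, at least 24.7-fold higher against a floor of 3 counts over the ESC group. Inhbb, the activin B subunit, fell 28.1-fold from 9.57 ± 1.81 to 0.32 ± 0.25 CPM (SD, n = 3), and Tgfb2 rose 6.28-fold to 3.97 ± 0.41 CPM. The remaining higher ligand was Gdf11 (4.15 and 7.87 CPM), which falls outside the naming rule, and without ESC replicate 3 Tgfb3 was tested as well and called higher. Gdf1, a NODAL partner, was listed at 0 in every library, and it lies inside the gene Cers1, which held 176 counts in all.

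Among other receptors and co-receptors, 3 of 5 were higher and 1 lower. Tgfbr2, the type II TGF-beta receptor, rose 3.51-fold to 3.07 ± 0.62 CPM, and 4.95-fold without ESC replicate 3. Acvr2a, the second activin type II receptor, rose 1.93-fold to 41.3 ± 1.12 CPM, and the co-receptor endoglin (Eng) fell 2.15-fold to 11.7 ± 0.14 CPM. Tgfbr1, also outside that rule, was the third higher gene (69.1 and 104 CPM). The NODAL type I receptor ALK7 (Acvr1c) and the second EGF-CFC co-receptor Cfc1 had too few reads to be tested, with at most 2 and 6 counts in a library. Of other antagonists, 1 of 5 was higher and 3 lower. The activin-binding genes split, with Fst (follistatin) down 2.44-fold to 8.08 ± 2.05 CPM and Fstl3 up 4.75-fold to 4.28 ± 0.77 CPM. The other lower genes were the decoy receptor Bambi (log2 fold change -0.29) and Nomo1 (-0.22, outside the rule), and both calls were lost in several alternative settings. Cer1, which encodes the NODAL antagonist Cerberus, had at most 1 count in a library.

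Of 7 other convertases, 4 were higher and 0 lower. Pcsk2, a convertase of neuroendocrine granules, rose 14.1-fold to 2.77 ± 0.59 CPM. Pcsk4 rose 3.56-fold to 1.84 ± 0.35 CPM. Mbtps1, which encodes the site-1 protease and lies outside the rule, was also called higher, at 286 and 341 CPM (adjusted p = 0.033 in edgeR). Its adjusted p reached 0.14 over the alternative settings, in which 3 to 5 of these convertases were higher. Pcsk5, a close relative of Pcsk6, was not called (1.14 and 1.39 CPM). Without ESC replicate 3, Pcsk1 was also called higher (log2 fold change 0.41, adjusted p = 0.0186 in edgeR) and Pcsk7 lower (-0.43, adjusted p = 0.000589).

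SMADs and their DNA-binding partners were higher in 4 of 5 cases and lower in 0. Foxh1, the partner that recruits SMADs to Nodal and Lefty genes, rose 2.34-fold from 35.5 ± 2.81 to 83.0 ± 4.34 CPM. Smad3 rose 1.71-fold to 56.6 ± 3.48 CPM, while Smad2 was not called (61.7 and 58.0 CPM). Smad2 was called lower when ESC replicate 3 was left out (log2 fold change -0.14, adjusted p = 0.0475 in edgeR), so that 1 of the 5 was lower. Trim33 (161 and 205 CPM) and the shared Smad4 (96.3 and 121 CPM, outside the rule) made up the rest.

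Regulators inside the cell were higher in 5 of 10 cases and lower in 2. Pmepa1, a feedback inhibitor of the pathway, rose 2.21-fold to 30.0 ± 3.88 CPM. Ski, the paralogue of Skil, rose 1.75-fold to 103 ± 4.48 CPM, and the co-repressor Tgif2 rose 1.53-fold to 48.5 ± 1.64 CPM. The others that were higher, Smurf2 and Ppm1a, and those that were lower, Rnf111 and Tgif1, lie outside the rule, and the inhibitory Smad7 was not called (78.2 and 101 CPM).

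Of 8 tested target genes, 5 were higher and 2 lower. Fgf8, a growth factor of the epiblast and streak, rose 101-fold from 0.28 ± 0.22 to 25.8 ± 2.78 CPM, and 144-fold without ESC replicate 3. Its ESC level rests on 2, 5 and 6 counts in replicates 1 to 3, so both folds are imprecise. The epiblast and anterior neural factor Otx2 rose 17.3-fold to 53.6 ± 4.28 CPM. Mixl1 (0.44 and 2.45 CPM) and T (1.49 and 6.62 CPM) also rose, Gsc (3.65 and 0.89 CPM) and Nanog (704 and 242 CPM) fell, and Eomes (15.1 and 13.4 CPM) was not called. Eomes was called lower when ESC replicate 3 was left out (log2 fold change -0.49, adjusted p = 0.00468 in edgeR), giving 3 lower, and Gsc fell 2.80-fold in place of 3.78-fold. Mixl1, T, Gsc and Nanog lie outside the rule, and all genes outside it were chosen after their values were seen.

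**Figure D5:**
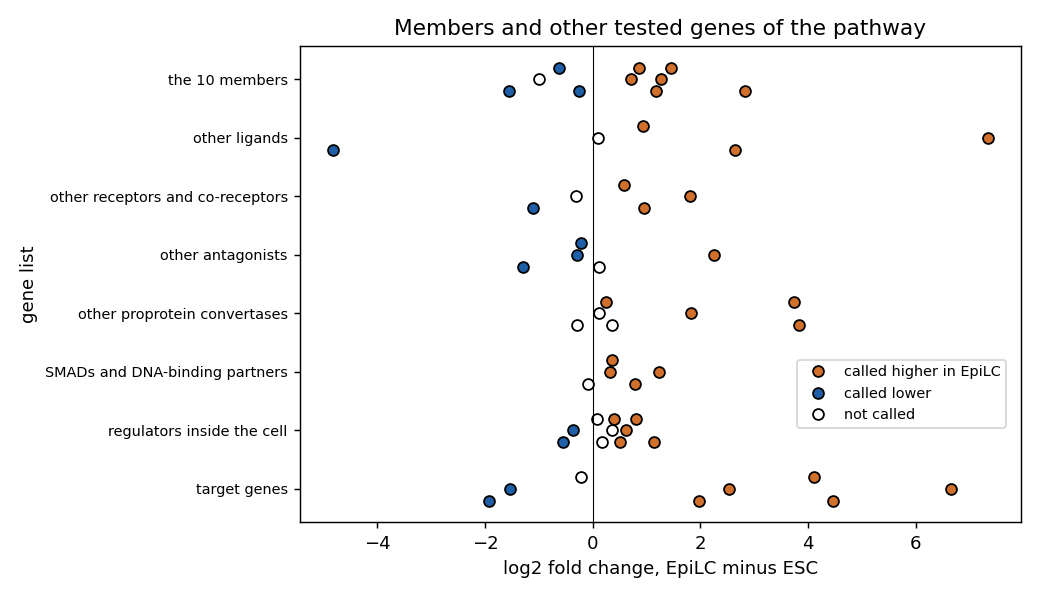
Log2 fold change, EpiLC minus ESC, of the 10 genes and of the tested genes in each list of the wider pathway, 1 point per gene, coloured by whether it was called higher, lower or not called. Inhba, the point farthest right, had 0 counts in ESC, so its fitted position depends on the fit's prior count; higher genes outnumber lower ones in every list but the other antagonists.

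The Lefty genes lie near each other on chromosome 1, with starts 41.9 kb apart, and their neighbours were read within 100 kb. Tmem63a, which begins just past Lefty1, rose 4.94-fold, from 10.6 ± 1.99 CPM to 53.1 ± 4.28 CPM. On the other side of Lefty2, Sde2 fell by 0.41 on the log2 scale. Ephx1, farther along, fell by 1.66 on the log2 scale, and H3f3a was not called (18.0 and 20.2 CPM). In ESC replicate 3, Tmem63a (8.54 CPM) differed from ESC replicates 1 and 2 by -0.44 on the log2 scale, and Lefty1 by -3.85.

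Gdf3 lies in a cluster of pluripotency genes on chromosome 6. Nanog and Apobec1 in its surroundings fell by 1.54 and 1.55 on the log2 scale, and Dppa3 (4.50 and 4.24 CPM) was not called, beside -0.25 for Gdf3. These neighbours were taken by position and not by how they moved.

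Promoters were read from RefSeq (GRCm38.p6), which matched 6 of the 10 genes, as the 250 bases before each start. They were searched on both strands for AATNNACA, a pattern that includes FOXH1 sites, for the SMAD palindrome GTCTAGAC and for the grainyhead pattern AACCNGTT, the series' title being about GRHL2. AATNNACA was present 2 times in the Tdgf1 promoter, starting at bases -127 and -101 from the start, and in 10.9% of 32851 mouse promoters of that length. The SMAD palindrome (0.167% of promoters) and the grainyhead pattern (1.79%) occurred in none of the windows of the 6 genes. A match describes letters and shows no binding. The Tdgf1 window (chr9:110946159-110946408, minus strand) is shown with its matches in capitals, and the Nodal window (chr10:61417722-61417971, plus strand), which held none of the 3 patterns, for comparison.
Tdgf1 promoter: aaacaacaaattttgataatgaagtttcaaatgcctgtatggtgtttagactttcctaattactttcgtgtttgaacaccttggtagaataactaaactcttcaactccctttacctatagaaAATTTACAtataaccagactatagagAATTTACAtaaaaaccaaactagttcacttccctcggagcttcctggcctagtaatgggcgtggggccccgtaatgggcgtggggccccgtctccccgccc
Nodal promoter: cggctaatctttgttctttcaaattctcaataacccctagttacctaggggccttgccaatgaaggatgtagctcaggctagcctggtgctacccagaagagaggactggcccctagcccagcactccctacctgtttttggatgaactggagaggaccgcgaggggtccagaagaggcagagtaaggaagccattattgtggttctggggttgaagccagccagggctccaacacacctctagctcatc
The GC content of the windows was 42% for Tdgf1, 53.2% for Nodal, 72.8% for Acvr2b, 78.8% for Acvr1b, 81.2% for Pcsk6 and 50.4% and 83.2% for the starts of Furin, against a median of 52.4% over all promoters.

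The genes nearest in pattern were sought among 9215 tested genes with a mean of at least 10 CPM, by the Euclidean distance between log2 levels centred over the 6 libraries. For Nodal these were the DNA nuclease gene Gen1 (distance 0.13), Plekhf2 (0.13) and Bbip1 (0.14). Gdf3 was nearest to Dclre1a (0.04), the serine synthesis gene Psat1 (0.05) and the splicing gene Bud31 (0.06). Both genes thus had neighbours at small distances on this scale, which is not adjusted for how much a gene varies over the libraries.

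For Lefty1 the nearest genes lay at larger distances, Nhs at 1.37 and the ephrin receptor gene Epha1 and the cyclin gene Ccnd2 at 1.40 each. All of them were at 0.70 to 1.05 CPM in ESC replicate 3. Their Pearson correlations with Lefty1 were 0.998 (Nhs), 0.968 (Epha1) and 0.996 (Ccnd2), against 0.983 to 0.994 for the genes nearest to Nodal and Gdf3. The larger distances therefore do not mean a less similar shape. Lefty2 was nearest to Csrnp3 (0.20), the apolipoprotein gene Apoe (0.25) and the lactate dehydrogenase gene Ldhb (0.37). Apoe stood at 1088, 968 and 372 CPM in ESC and at 484, 404 and 393 CPM in EpiLC, lowest of all in ESC replicate 3. Ldhb was not lowest there, at 59.8 CPM against 58.8 and 55.3 CPM in EpiLC replicates 2 and 3. These genes were picked for their likeness to Lefty2 over the same libraries, so the likeness is no separate result.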

How the data were processed

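Per the labels' protocols, Trizol RNA without ribosomal RNA went into a stranded Kapa kit. The files deposited by the authors hold raw counts per Ensembl gene, made with cutadapt, STAR and featureCounts on mm10, with DESeq2 also listed, per the submitters' processing notes. The strand setting is not given in the sources used here. The 10 genes and the pathway and marker lists were chosen with earlier results of these data known. Counts were fitted over all genes with edgeR 4.0.16 (quasi-likelihood, legacy off, TMM scaling, group as the single term). Tests were two-sided, with Benjamini-Hochberg adjustment over 14996 genes, and the scripts were tested on simulated data. The read filter was filterByExpr at its defaults. It kept genes with at least 15 counts in total that reached a set CPM in at least 3 libraries, that of 10 counts at the median library size. The 92 spike-in rows held 0 counts and were left out. Positions and exon lengths come from GENCODE M21. The naming rule for pathway genes took called genes among the 3 largest absolute changes of each list with at least 1 CPM in the higher group, with uncalled genes as values. Nearest genes are the 3 closest in log2 CPM (prior count 2), gene models left out. Alternatives were RLE, upper quartile and library-total scaling, DESeq2 1.42.0, limma-voom (limma 3.58.1), no filter, a replicate block and leaving out each library. Some genes that these rules take, and some sequence, are not reported here.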

Additional observations from a re-analysis of the deposited data

How the results depend on the processing

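Of 130 values of the members' log2 fold changes recomputed under the alternatives, all kept their direction and 4 changed sides of the threshold, and the 40 values of the 5 ratios kept their direction. Lefty2 passed without the filter on low counts (log2 fold change -1.08, adjusted p = 0.032 in edgeR) and without ESC replicate 3, and leaving out each library in turn gave -1.39 to -0.69. Gdf3 ranged from -0.30 to -0.22 when single libraries were left out, losing its call without EpiLC replicate 1 or 2. Under upper quartile scaling Gdf3 was -0.20 (adjusted p = 0.033 in edgeR). Called members numbered 8 to 10, other pathway genes 30 to 39 and all genes 8514 to 11730 when single libraries were left out, and the 9 called members were all called under each setting other than those 2. Leaving out single libraries also changed the sign of some genes that were not called. Tgfb1 ranged from -0.035 to 0.22, Dand5 from -0.11 to 0.35 and Pcsk1 from -0.086 to 0.41. No cause was tested. With the replicate block Lefty1 was 3.27 (adjusted p = 0.0082 in edgeR), Lefty2 -0.82 (0.0622) and Gdf3 -0.25 (0.0344), with 9231 genes called. In their deviations from the group means, same-numbered samples correlated at -0.09, -0.01 and -0.15. The deviations within a group sum to 0, so these values cannot tell whether the numbers pair the samples. Scaling by library totals moved the median of all genes to 0.08. Low counts limit T, Mixl1, Fgf8, Inhba, Inhbb and Pcsk2, and the shared sequence of Lefty1 and Lefty2 limits the split between them.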
